A study of Rattus norvegicus with 12 samples.

Results

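Ccl2, Ccl7, Cxcl1 and Cxcl10 are 4 chemokine genes whose transcripts were higher in rat oligodendroglial cells transfected with p25alpha than in mock-transfected cells. They were taken by symbol, which gave 4 probe sets, 1 for each gene, of 31096 on the array, and no member probe set is shared with another gene. They were chosen by their difference between p25alpha and mock cells on these same arrays, so that difference is given below as a description without a test. All 4 were called present on each of the 12 arrays, which is the MAS5 software's call of a signal above background, and all passed the filter of at least 2 present calls.

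RNA was measured on Affymetrix rat arrays in OLN cells, an oligodendroglial line, that stably expressed alpha-synuclein in every group. The p25alpha cells then received a pcDNA3.1 plasmid for p25alpha, also called TPPP, a tubulin-binding protein of oligodendrocytes, and the mock cells an empty control vector, both with the Fugene-6 reagent. RNA was isolated 8, 12 and 16 h later in 2 experiments, with 1 array per experiment in each of the 6 groups. The labels give neither the share of cells that took up the plasmid nor a separate culture for each experiment. The p-values therefore measure only how far these arrays spread, which may be technical. No cells without alpha-synuclein and no untransfected cells are among the groups.

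Present calls covered 49.3 to 55.2% of probe sets per array, and 2 arrays a group limit the precision. The 3′ over 5′ signal ratio of actin, a sign of RNA quality, was 4.65 to 7.05 in experiment 2 and 2.14 to 3.12 in experiment 1, while that of GAPDH was 0.90 to 1.03 in experiment 2 and 0.97 to 1.09 in experiment 1. Of 12 oligodendrocyte lineage markers with a probe set, 8 were present on all 12 arrays, among them Sox10, Olig1 and Cnp, while Olig2 and Mal were present on 0. The median difference between p25alpha and mock cells over 10 tested lineage markers was -0.05 on the log2 scale. Of 10 microglia and macrophage markers, 7 were present on 0 arrays, including Aif1, Itgam, Ptprc and Cd68. Tyrobp was present on 1 array and Csf1r on 5 (3 p25alpha and 2 mock), and Cd14 alone was present on all 12. Of 6 astrocyte markers, Gfap, Slc1a3 and S100b were present on all 12 arrays, Aqp4 on 2, Aldh1l1 on 1 and Slc1a2 on 0, and the median difference of the 4 tested was -0.04. All 6 neuron markers were present on at least 1 array and Map2 on all 12. Their median difference was 0.35, with 4 higher and 2 lower. Tubb3 was at 0.99 (present on 2 p25alpha arrays and 0 mock arrays), Syt1 at 0.94, Snap25 at 0.42 and Nefl at 0.28. Map2 was at -0.10 and Rbfox3 at -0.58. Of 6 fibroblast and muscle markers, 3 were present on 0 arrays and 3 were tested, all lower in p25alpha cells, with a median of -0.29 and Acta2 at -1.12 (lower in 5 of 6 pairs). Tubb3 passed the filter only through p25alpha arrays, so no test is given for it. None of the other tested markers passed (limma, with or without the experiment as a block). The part of these markers in the results below was not tested. Endothelial markers were present on 0 arrays and 1 of 4 lymphocyte markers on 1 array. The symbol Tppp was carried by 0 probe sets, so the level of the expressed gene itself was not analysed here.

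Chemokines are small secreted proteins that bind G protein-coupled receptors on leukocytes and guide their migration. CC chemokines such as Ccl2 and Ccl7 mainly draw monocytes through Ccr2, CXC chemokines such as Cxcl1 draw neutrophils through Cxcr2, and Cxcl10 draws activated T cells through Cxcr3. Their genes are classical targets of NF-kB, a transcription factor held in the cytoplasm by inhibitors such as IkB-alpha, and Cxcl10 is in addition a classical interferon-induced gene. In the nervous system, glial cells are known to release them during inflammation and after injury.

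In the RefSeq gene order of assembly GRCr8, Ccl7 is the next protein-coding gene to Ccl2, and Ccl11 follows. Cxcl10 lies between Cxcl11 and Cxcl9, and Cxcl1 is next to Cxcl2. The promoter sequences are shown because these genes were chosen for moving the same way, and because their promoters are known for the motifs marked here. RefSeq promoter windows were found for 3 of the 4 members. Each holds the 250 bases before the annotated start on the gene's own strand, with motif matches in capitals. The windows lie at chr10:67513845-67514094 (plus strand) for Ccl7, chr14:17479322-17479571 (minus strand) for Cxcl1 and chr14:15988816-15989065 (plus strand) for Cxcl10.
Ccl7: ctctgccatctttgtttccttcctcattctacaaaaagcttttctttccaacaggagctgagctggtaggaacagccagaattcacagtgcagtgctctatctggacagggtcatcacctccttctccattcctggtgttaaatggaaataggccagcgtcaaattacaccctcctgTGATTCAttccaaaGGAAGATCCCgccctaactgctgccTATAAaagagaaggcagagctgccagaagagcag
Cxcl1: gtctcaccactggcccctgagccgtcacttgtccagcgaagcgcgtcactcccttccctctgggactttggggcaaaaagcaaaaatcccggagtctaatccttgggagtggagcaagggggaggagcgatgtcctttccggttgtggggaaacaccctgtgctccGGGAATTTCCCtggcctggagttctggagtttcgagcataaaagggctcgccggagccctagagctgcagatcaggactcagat
Cxcl10: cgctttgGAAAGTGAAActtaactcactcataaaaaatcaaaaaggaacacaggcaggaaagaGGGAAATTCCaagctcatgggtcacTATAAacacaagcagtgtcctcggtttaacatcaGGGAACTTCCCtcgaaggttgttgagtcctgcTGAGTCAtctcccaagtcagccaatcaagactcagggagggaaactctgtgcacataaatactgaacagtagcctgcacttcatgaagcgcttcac
The NF-kB consensus was searched on both strands. It matched in 1 stretch of the Ccl7 window, on the opposite strand only (GGAAGATCCC as printed in the window, first base 59 before the start). It matched in 1 stretch of the Cxcl1 window, GGGAATTTCCC, which begins 84 bases before the start and holds a match on each strand that overlap. In the Cxcl10 window it matched in 2 stretches, which begin 187 and 128 bases before the start, the nearer one again with overlapping matches on both strands. Of all 33469 promoters searched over the same 250 bases, 6.3% held such a match. The AP-1 motif, TGANTCA on both strands, was in the windows of Ccl7 at 73 bases and of Cxcl10 at 96 bases before the start, and in 6.3% of all promoters. The core of the interferon-stimulated response element (ISRE), GAAANNGAAA on both strands, was in the Cxcl10 window alone among the 3, at 243 bases, and in 3.4% of all promoters. The letters TATAA on the gene's strand lay 34 bases before the start of Ccl7 and 162 before that of Cxcl10, and occurred in 16.7% of all promoters. These are matches of letters, and binding was not measured.

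**Figure D1:**
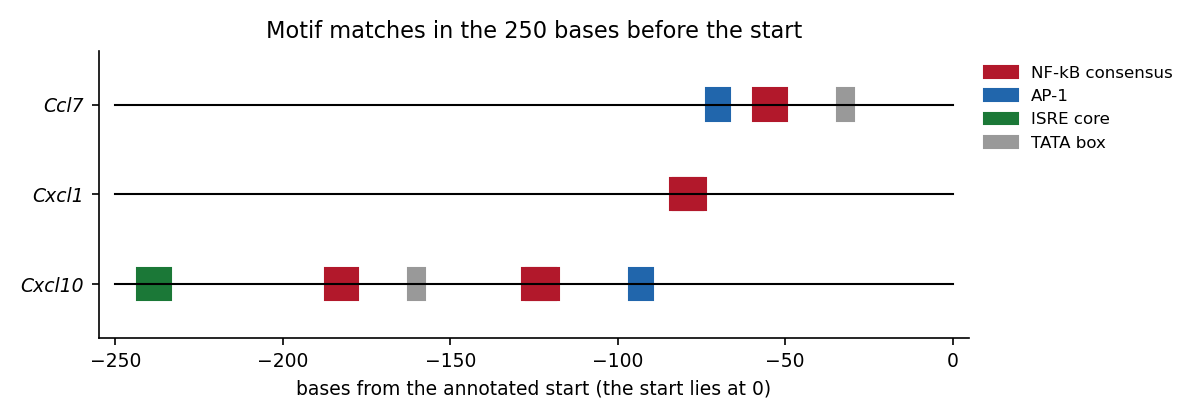
Motif matches in the 250 bases before the annotated start of Ccl7, Cxcl1 and Cxcl10, with the distance from the start in bases on the horizontal axis. Coloured blocks mark each motif, overlapping NF-kB matches of both strands form 1 block, and each of the 3 windows has at least 1 NF-kB block.

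Ccl2 encodes a ligand of Ccr2 and a main attractant of monocytes. In p25alpha cells its signal was 4198.3 and 2394.5 at 8 h in experiments 1 and 2, 4354.6 and 3556.6 at 12 h, and 3814.1 and 2440.6 at 16 h. In mock cells it was 881.2 and 362.9 at 8 h, 925.0 and 391.8 at 12 h, and 1185.0 and 486.3 at 16 h. Every p25alpha array stood above every mock array, and experiment 1 was the higher one at each time in both arms. The difference averaged 2.40 ± 0.51 on the log2 scale (SD over 6 pairs of the same experiment and time), which is 5.28-fold, and single pairs ranged from 3.22-fold to 9.08-fold. Because each array measures a mixed population, more cells expressing the gene and more RNA per cell cannot be told apart.

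Ccl7, a second monocyte attractant that shares Ccr2 with Ccl2 and also binds other CC receptors, was the dim member. Its signal was 97.3 and 36 in p25alpha cells at 8 h in experiments 1 and 2, 140.7 and 69.2 at 12 h, and 125.0 and 44.1 at 16 h. Mock cells had 14.2 and 19.5 at 8 h, 17.5 and 12.8 at 12 h, and 25.6 and 19.4 at 16 h. The arms did not overlap, but p25alpha cells of experiment 2 at 8 h came closest to mock cells. The mean difference was 2.10 ± 0.87 on the log2 scale (SD, n = 6 pairs), or 4.28-fold, with pairs from 1.85-fold to 8.04-fold. The 2 lowest pairs were both from experiment 2, at 8 and 16 h.

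Cxcl1 encodes a neutrophil attractant that signals through Cxcr2. The p25alpha arrays read 1590.1 and 444.8 at 8 h in experiments 1 and 2, 1047.8 and 706.6 at 12 h, and 1129.4 and 566.4 at 16 h. The mock arrays read 94.6 and 61.9 at 8 h, 133.8 and 84.6 at 12 h, and 132.5 and 77.5 at 16 h. The lowest p25alpha array lay well above the highest mock array. Cxcl1 had the largest mean difference of the 4, at 3.15 ± 0.46 on the log2 scale (SD, n = 6 pairs), or 8.89-fold, and its pairs ranged from 7.19-fold to 16.8-fold. The 16.8-fold pair was experiment 1 at 8 h.

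Cxcl10 encodes an interferon-inducible ligand of Cxcr3. Its p25alpha signal was 299.2 and 160.4 at 8 h in experiments 1 and 2, 287.1 and 177.7 at 12 h, and 355.0 and 211.5 at 16 h. Its mock signal was 156.6 and 128.5 at 8 h, 203.4 and 111.3 at 12 h, and 199.3 and 130.2 at 16 h. Here the arms overlapped: the p25alpha arrays of experiment 2 at 8 and 12 h lay below the mock arrays of experiment 1 at 12 and 16 h. Within each pair p25alpha was higher, by 0.66 ± 0.22 on the log2 scale (SD, n = 6 pairs), or 1.58-fold, with a range of 1.25-fold to 1.91-fold.

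Over all 4 genes, p25alpha was above mock in 6 of 6 pairs, a pattern that 5.99% of the 19248 tested probe sets showed. For 3 of the 4 genes all p25alpha arrays were above all mock arrays, as for 0.431% of tested probe sets. These counts follow from how the genes were chosen. Ranked by mean difference among all tested probe sets, Cxcl1 was at place 2, Ccl2 at 7, Ccl7 at 13 and Cxcl10 at 651. The median difference of all tested probe sets was 0.01 on the log2 scale.

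**Figure D2:**
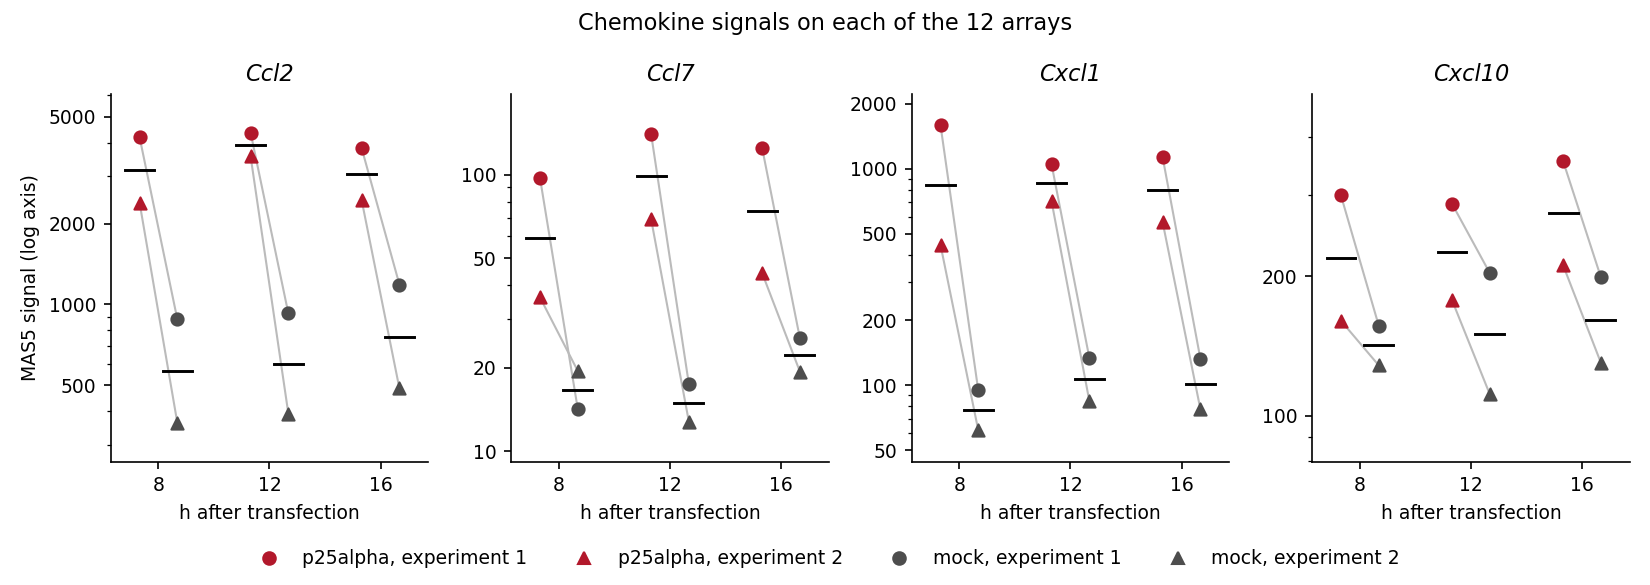
MAS5 signal of each chemokine on each array (log axis) against hours after transfection, with p25alpha arrays left of mock arrays, circles for experiment 1, triangles for experiment 2, bars at the geometric mean of 2 arrays and grey lines joining arrays of 1 experiment. All 6 lines of each gene fall from p25alpha to mock, and only for Cxcl10 do the 2 arms share a range (160.4 to 355.0 against 111.3 to 203.4).

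The members did not keep 1 order in all pairs. Cxcl1 had the largest difference in 4 of 6 pairs, Ccl2 in 1 and Ccl7 in 1, while Cxcl10 had the smallest in all 6. The mean difference of Ccl2 at 8, 12 and 16 h was 2.49, 2.71 and 2.01 on the log2 scale, and that of Ccl7 was 1.83, 2.72 and 1.74. For Cxcl1 it was 3.46, 3.02 and 2.98, and for Cxcl10 it was 0.63, 0.59 and 0.77. Ccl2 and Ccl7 were thus highest on average at 12 h, Cxcl1 at 8 h and Cxcl10 at 16 h. For Ccl2 and Cxcl1 the pairs of that time overlapped in range with those of each other time. The Ccl7 pairs at 12 h (2.44 and 3.01) lay above those at 16 h (1.19 and 2.29), and the Cxcl10 pairs at 16 h (0.70 and 0.83) above those at 12 h (0.50 and 0.68), while both genes' pairs at 8 h overlapped in range with those at 12 h. These differences between times were not tested.

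By experiment, Ccl2 and the other members were ordered differently, and the contrast was not tested. The mean difference of Ccl2 was 2.74 on the log2 scale in experiment 2 and 2.06 in experiment 1. The other members had the smaller difference in experiment 2. For Ccl7 it was 1.5 in experiment 2 and 2.69 in experiment 1, for Cxcl1 it was 2.93 in experiment 2 and 3.38 in experiment 1, and for Cxcl10 it was 0.57 in experiment 2 and 0.76 in experiment 1.

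**Figure D3:**
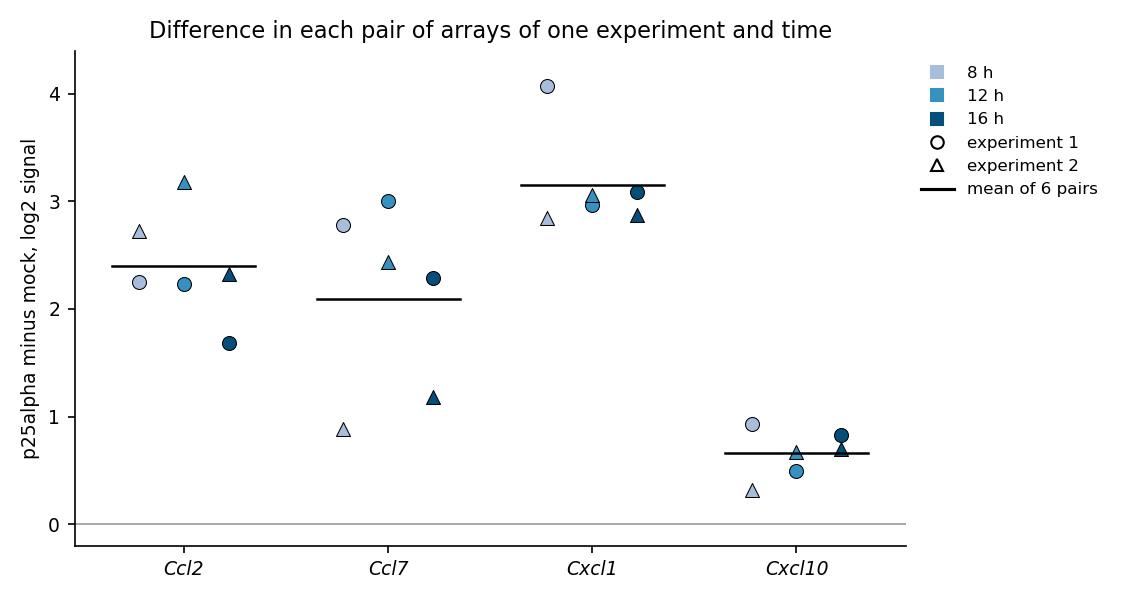
Difference between p25alpha and mock (log2 signal) in each of the 6 pairs for the 4 chemokines, with colour for the time, circles for experiment 1, triangles for experiment 2 and a line at the mean. Ccl7 has the widest spread (SD 0.87) and Cxcl10 the narrowest (SD 0.22).

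In the authors' deposited table of array-to-array comparisons, Ccl2, Ccl7 and Cxcl1 were called increased in 6 of 6 comparisons of p25alpha over mock. The signal log ratio (log2) in the authors' deposited table ran from 1.7 to 3.1 for Ccl2, from 0.9 to 2.6 for Ccl7 and from 2.8 to 3.7 for Cxcl1. Cxcl10 was called increased in 5 of 6, with ratios of 0.3 to 1.0 in the authors' deposited table, and its call of no change was experiment 2 at 8 h. Of all 31096 probe sets, 0.807 to 2.35% carried an increase call in these comparisons of the authors' deposited table, each taken singly. The share called increased in all 6 was not counted. These calls come from the arrays and the contrast that chose the genes, so they are a description.

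Time within each arm was tested, since the difference between arms had chosen the members. None of the 4 passed the test of 12 or 16 h against 8 h in either arm (limma, 0 of 4 in each of 4 contrasts, and 0 of 4 also at an unadjusted p under 0.05, with or without the experiment as a block, a term that takes out each experiment's own level). The lowest adjusted p of a member was 0.745. The whole table gave 0% called in these contrasts without the block and at most 0.00520% with it. In p25alpha cells Ccl7 had the largest step, 0.74 ± 0.63 (SE, log2) at 12 over 8 h, with geometric means of 98.7 at 12 h and 59.2 at 8 h. This step was 0.02 without the p25alpha array of experiment 2 at 8 h, 0.23 without that of experiment 1 at 12 h, 1.25 without that of experiment 2 at 12 h, and 1.45 without that of experiment 1 at 8 h. Cxcl1 was level on average, at 0.03 ± 0.64 for 12 over 8 h, but the experiments moved apart: its change was 0.67 in experiment 2 and -0.60 in experiment 1. Ccl2 changed by 0.31 ± 0.63 at 12 h and by -0.06 ± 0.63 at 16 h against 8 h, and Cxcl10 by 0.04 ± 0.47 and 0.32 ± 0.47. In mock cells the steps from 8 h were between -0.15 and 0.48 at 12 h and between 0.18 and 0.42 at 16 h. Only 2 arrays stand behind each mean, and the standard errors of 0.47 to 0.64, from the fit without the block, leave sizeable steps undetectable. With the block they were 0.27 for Ccl2, 0.46 for Ccl7, 0.31 for Cxcl1 and 0.17 for Cxcl10.

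**Figure D4:**
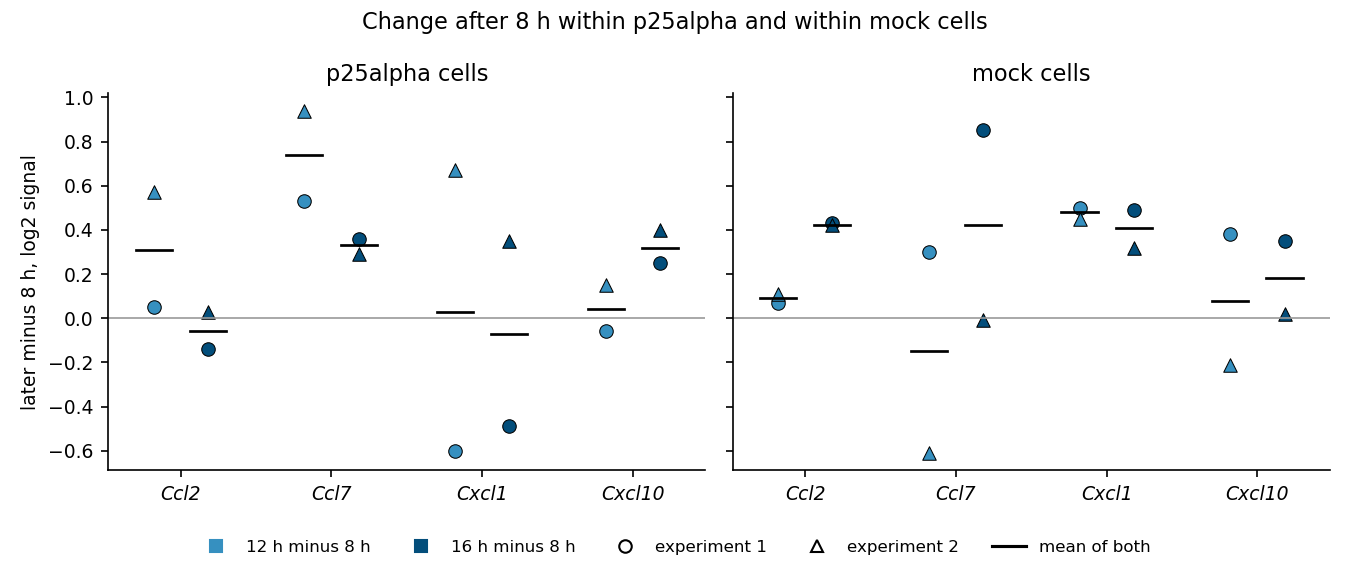
Change from 8 h to 12 and 16 h (log2 signal) within p25alpha cells on the left and within mock cells on the right, with circles for experiment 1, triangles for experiment 2 and lines at their mean. Cxcl1 in p25alpha cells lies on opposite sides of 0 in the 2 experiments, at 0.67 and -0.60 for 12 h.

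The levels of Ccl2, Cxcl1 and Cxcl10 also differed between the experiments in both arms, while that of Ccl7 differed little in mock cells. In a fit with the experiment as a term, Cxcl10 was lower in experiment 2 by -0.68 ± 0.10 (SE, log2, limma adjusted p = 0.00157), in 6 of 6 pairs of arrays. Ccl2 was lower by -0.93 ± 0.15 (limma adjusted p = 0.00286) and Cxcl1 by -0.91 ± 0.18 (limma adjusted p = 0.0053), each in 6 of 6 pairs. Ccl7 did not pass, at -0.73 ± 0.26 (limma adjusted p = 0.0546, lower in 5 of 6). Of all tested probe sets 51.0% passed this test, 29.4% higher and 21.6% lower in experiment 2, so 3 of 4 members is not a result about these genes. Of the probe sets that passed, 5650 were higher in experiment 2 and 4164 lower, which became 2328 and 7118 with median centring. The actin ratio given above moved with the experiments, and its part in these differences was not tested.

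By arm the lower level in experiment 2 was uneven. For Ccl2 it was -0.58 on the log2 scale in p25alpha cells (geometric means of 2749.5 in experiment 2 and 4116.0 in experiment 1) and -1.27 in mock cells (410.4 in experiment 2 and 988.5 in experiment 1). For Ccl7 the difference was -1.32 in p25alpha cells and -0.13 in mock cells. For Cxcl1 the difference was -1.13 in p25alpha cells and -0.68 in mock cells, and for Cxcl10 it was -0.78 in p25alpha cells and -0.59 in mock cells. These are values by arm, and their contrast was not tested because it is the difference that chose the members.

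The genes most like each chemokine were found by the correlation of log2 signals over the 12 arrays, after each experiment's mean was taken out. These arrays share the p25alpha and mock split, so the values describe likeness within this split. Ccl2 and Cxcl1 were the closest pair of members (r = 0.968), and Ccl2 and Cxcl10 the least close (r = 0.874). Of 11237 candidate probe sets, 25 were above 0.9 with Ccl2, 25 with Ccl7, 32 with Cxcl1 and 27 with Cxcl10. Nearest to Ccl2 were Fos (r = 0.973), a subunit of AP-1, Ier3 (0.960), an immediate early gene, Nfkbia (0.959), which encodes IkB-alpha, and Rnf146 (0.958), a ubiquitin ligase.

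Nearest to Ccl7 were the nuclear receptor gene Nr4a3 (r = 0.963), Irf1 (0.955), an interferon regulatory transcription factor, Dedd (0.950), a death effector domain protein, and Kpna1 (0.945), a nuclear import adaptor. Cxcl1 was closest to Zfp36l2 (0.955), an mRNA decay factor, then Nfkbia (0.953), Ier3 (0.948) and Kpna1 (0.946). Cxcl10 was closest to Nqo1 (0.973), a quinone reductase, and Srxn1 (0.954), a sulfiredoxin, then to 1 probe set of Fkbp2 (0.937) and to Zfp36l2 (0.936). Likeness did not mean like size. Nqo1 differed between p25alpha and mock cells by 0.21 on the log2 scale and Fos by 1.48. The Fkbp2 probe set differed by 2.91, against -0.07 and 0.12 for the other Fkbp2 probe sets, so that value belongs to 1 probe set.

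The rest of the chemokine system was mostly not detected. Of 25 other chemokine ligand genes with a probe set, 17 were present on 0 arrays, 7 on 1 to 3 arrays, and Cxcl14 alone on more, with 10. Neighbours of the members were among the undetected: Ccl11, Cxcl9 and Cxcl11 were present on 0 arrays. Cxcl2, the neutrophil attractant next to Cxcl1, was present on 1 p25alpha array and 0 mock arrays and was not tested.

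Cxcl3, another Cxcr2 ligand close to Cxcl1, passed the filter with 1 of its 5 probe sets, and only through 2 present calls on p25alpha arrays. That probe set read 23.6 and 27.5 in p25alpha cells at 8 h in experiments 1 and 2, 28.9 and 36.1 at 12 h, and 40.4 and 52.8 at 16 h. In mock cells it read 9.9 and 15.2 at 8 h, 1.8 and 8.6 at 12 h, and 15.2 and 42.9 at 16 h, and 4 of 6 p25alpha values and all 6 mock values were called absent. The difference was 1.65 on the log2 scale, and since the high arm alone took it past the filter, no test is given for it. Its other probe sets, which did not pass the filter, differed by 2.34, 1.37, 1.43 and -0.10. Other tested ligands were Cxcl16 at 0.74, Ppbp at 0.62, Ccl6 at 0.55 and Cxcl14 at -0.19 on the log2 scale, and none passed.

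Of 16 chemokine receptor genes with a probe set, 13 were present on 0 arrays, including Ccr2 and Cxcr2, the receptors of Ccl2, Ccl7 and Cxcl1. Cxcr3, the receptor of Cxcl10, was present on 5 p25alpha arrays and 3 mock arrays. Its p25alpha arrays lay between 8.7 and 22.3 and its mock arrays between 1.3 and 17.2, and p25alpha was higher in 6 of 6 pairs. The difference of 1.04 ± 0.69 (SE, log2, or 0.37 with the block) did not pass (limma adjusted p = 1, or 0.293 with the block). It was 0.42 without the mock array of experiment 1 at 16 h and 1.66 without that of experiment 2.

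Other genes that act on chemokine expression were set in lists by role. The ligands, the receptors and these lists together named 129 genes, of which 101 had a probe set and 51 were tested. These 51, and so the counts below, include Cxcl3, which passed the filter only through p25alpha arrays. Over all times 1 of 51 rose and 0 fell (limma), where 0.0208% of all tested probe sets were called. With the experiment as a block 3 of 51 rose, Il6, Nfkbia and Zfp36l1, and 0 fell. Of all tested probe sets 0.239% were called with the block, 0.208% higher and 0.0312% lower. The lists were chosen with earlier results of these data known, so these counts beside the whole table are a description. At the single times 0 of 51 were called without the block, and the whole table gave 0%, 0.0104% and 0% at 8, 12 and 16 h. An unadjusted p under 0.05 was reached by 4, 7 and 4 of the 51 at these times, against 210, 475 and 463 of all 19248 probe sets. With the block Il6 was called at 12 h (limma adjusted p = 0.015) and at 16 h (limma adjusted p = 0.0199), where 0.0571% of the table was called at each of these times and 0.0520% higher, and 0 of 51 were called at 8 h, with 7 at an unadjusted p under 0.05 against 940 of all 19248.

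Il6 encodes interleukin 6, an inflammatory cytokine. In p25alpha cells it read 117.3 and 201.1 at 8 h in experiments 1 and 2, 284.3 and 391.4 at 12 h, and 389.3 and 390.1 at 16 h. In mock cells it read 41.4 and 52.9 at 8 h, 42.1 and 58.0 at 12 h, and 56.3 and 59.9 at 16 h. The arms did not overlap, and Il6 rose by 2.41 ± 0.18 (SE, log2), or 5.30-fold (limma adjusted p = 0.00582), in 6 of 6 pairs. Unlike the 4 chemokines, Il6 read higher in experiment 2 than in experiment 1 in every group. Of the other genes in the list of upstream cytokines and sensors, 11 were tested and none passed. Csf1, a growth factor of macrophages, differed by 0.65 and in its other tested probe sets by 0.69, 0.56 and 0.71, and Lif, a dim cytokine gene, by 0.81. The list had a median of 0.13 on the log2 scale, with 10 of 12 tested genes higher.

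Nfkbia, whose product holds NF-kB in the cytoplasm and which is itself a target of NF-kB, had the largest difference of 6 tested NF-kB regulators. It read 468.2 and 239.6 in p25alpha cells at 8 h in experiments 1 and 2, 480.7 and 397.5 at 12 h, and 437.8 and 234.8 at 16 h. In mock cells it read 171.5 and 108.1 at 8 h, 190.1 and 95.0 at 12 h, and 162.7 and 73.7 at 16 h. As with Ccl2, Cxcl1 and Cxcl10, experiment 1 was higher in every group. The difference was 1.52 on the log2 scale, or 2.86-fold, in 6 of 6 pairs, and it rose in the fit with the block (limma adjusted p = 0.00814) but did not pass without it (limma adjusted p = 0.47). With the block the call was lost without any 1 of 5 arrays, which were p25alpha at 8 h in either experiment, p25alpha at 16 h and mock at 8 h in experiment 1, and mock at 12 h in experiment 2 (limma adjusted p up to 0.0551). Nfkbib differed by 0.35 and Nfkb2 by 0.33, and neither passed. The median of the list was 0.24.

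In the interferon list, 11 of 17 genes were tested and none passed in either fit. Irf1 was highest, at 0.62 (limma adjusted p = 0.805, or 0.117 with the block), with 314.8 to 488.1 in p25alpha cells and 238.4 to 303.6 in mock cells, arms that did not overlap. Irf7, which drives interferon genes, differed by 0.51 and Ifit3, an interferon-induced gene that was dim, by 0.45. Other tested interferon-induced genes, Usp18 at 0.03 and Ifit2 at 0.23, also did not pass. The median was 0.21, with 9 of 11 higher. The Cxcl10 window was the 1 of 3 with the ISRE core, and a link between that motif and these values was not tested.

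The mRNAs of many cytokines, Cxcl1 and Il6 among them, carry AU-rich elements and are known to be degraded through Zfp36 family proteins. All 9 decay genes with a probe set were tested. Zfp36l1 rose in the fit with the block, by 0.56 on the log2 scale in 6 of 6 pairs (limma adjusted p = 0.0489), and not without it (limma adjusted p = 1). That call was lost without any single array of the 12 (limma adjusted p = 0.0855 to 0.173). The Zfp36l1 signal lay between 973.3 and 2051.0 on p25alpha arrays and between 726.7 and 1370.2 on mock arrays, so the arms overlapped. Dusp1, a phosphatase that restrains p38 signalling, differed by 0.86 (limma adjusted p = 0.282, or 0.0599 with the block), and Zfp36l2 by 0.48. The list's median was 0.07.

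Genes that bind or cut chemokines were not called. Of 6 tested, 2 were higher and 4 lower, and their median was -0.08 (log2). Mmp2, a protease known to cleave Ccl7, differed by 0.19, Mmp14 by -0.15 and the syndecan Sdc4 by 0.16.

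**Figure D5:**
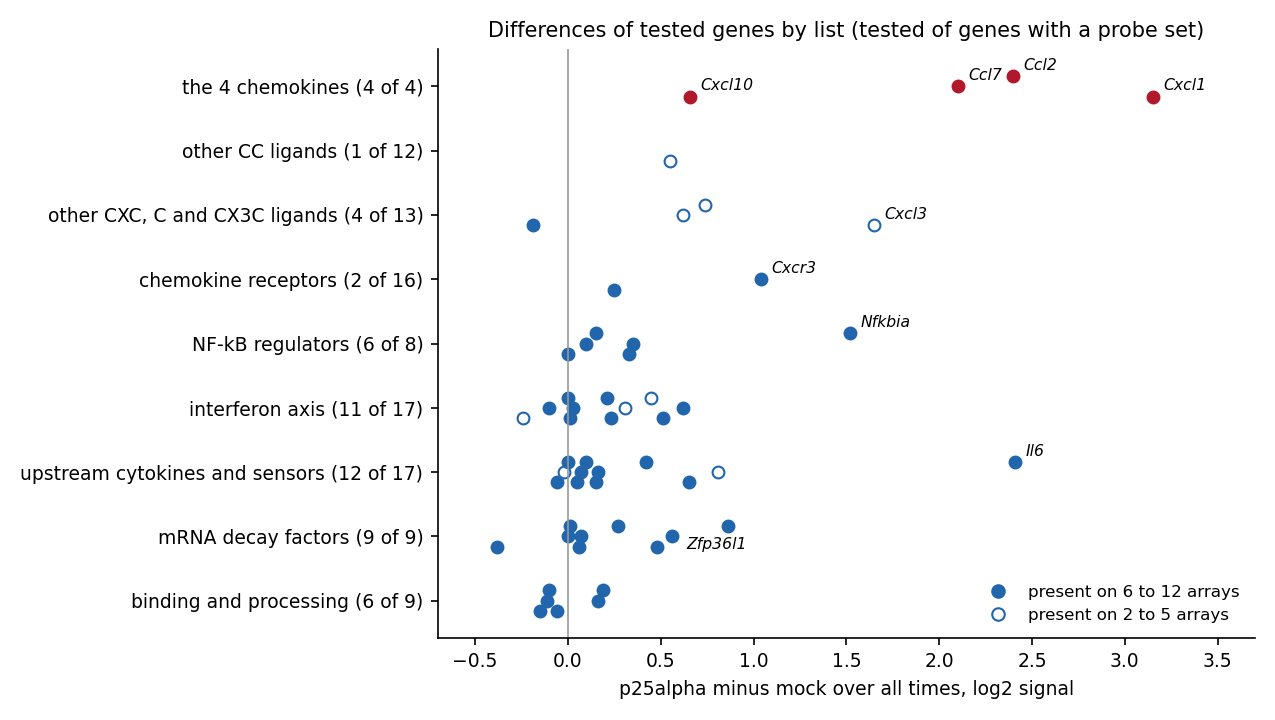
Mean difference between p25alpha and mock over all times (log2 signal) for the 4 chemokines (red) and for the tested genes of 8 lists (blue), each by its brightest tested probe set, with open circles for genes present on 2 to 5 arrays. The 4 chemokines were chosen for this difference, and Il6 lies at 2.41 and Nfkbia at 1.52. Cxcl3, at 1.65, entered only through present calls on p25alpha arrays.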

How the data were processed

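Per the labels' protocols, RNA was purified on RNeasy columns and made into biotinylated cRNA. The deposited values are linear MAS5 signal intensities, per the submitters' processing notes (version not given in the sources used here), with a trimmed mean of 150.0 on each array. Detection calls, and log2 signal ratios with change calls (first-named array over the second), were deposited too, per the file headers. Symbols came from the deposited annotation, updated through a RefSeq table (GRCr8), which gave 20124 probe sets 1 symbol, 331 several and 10641 none.

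Signals were floored at 0.1 and log2 was taken. Testing took probe sets with at least 2 present calls among 12 arrays, without 57 control probe sets, which left 19248. Such scaling leaves low signals noisy on the log scale. Groups followed the titles, and limma (3.58.1, R 4.3.3) was fitted with 6 group means over all 12 arrays. P-values were adjusted by Benjamini-Hochberg over the 19248 probe sets, and 0.05 was the threshold. The code was tested on simulated data.

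The experiment numbers come from the titles. In all 15 pairs of groups, arrays with the same number deviated together from the group means (r between 0.47 and 0.57), so the numbers pair the arrays, and the fit with the experiment as a replicate block is printed where it changes a call.

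The members and lists were chosen with earlier results of these data known. Named were all members, per list each gene past the threshold in either fit and the 3 with the largest difference, per member the 4 genes of highest correlation, Nfkbia and Il6. A gene that the rule names is not reported here. A gene outside this rule is named for its place or role. A gene stood for its brightest tested probe set. Alternatives were quantile normalization, median centring, other filters, an offset of 50, eBayes with trend and robust, the block, and leaving out each array.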

Additional observations from a re-analysis of the deposited data

Results flagged for a closer look

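Ccl6, a dim CC chemokine gene present on 1 p25alpha array and 1 mock array, moved in opposite directions at 12 and 8 h. It was higher in p25alpha cells in both pairs at 12 h, by 1.6 on the log2 scale (10.9 and 4.4 in p25alpha cells in experiments 1 and 2, against 6.5 and 0.8 in mock cells). It was lower in both pairs at 8 h, at -0.67 (8.5 and 9.1 in p25alpha cells, against 11.4 and 17.2 in mock cells). The difference between the times was not tested. Most of these signals were called absent.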

How the results depend on the processing

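The mean differences between p25alpha and mock kept their direction for the 4 chemokines under every alternative run. The genes were chosen for this difference on these same arrays, so the kept direction is a description. Leaving out 1 array at a time gave 2.19 to 2.62 for Ccl2, 1.85 to 2.35 for Ccl7, 2.85 to 3.46 for Cxcl1 and 0.51 to 0.81 for Cxcl10 on the log2 scale. An offset of 50 before log2, which compresses low signals, gave 0.93 for Ccl7 and 2.61 for Cxcl1. With the experiment as a replicate block, 3 genes of the chemokine lists were called over all times. At 12 h 1 was called with the block, above the median signal, with the offset, or with trend and robust, and at 16 h 1 with the block, above the median signal, or with the offset. The block changed no call of a member over time. Leaving out arrays kept 1 list gene called over all times, 0 at single times and 0 members over time, and 3 to 4 members between experiments. Ccl7 passed between experiments with quantile normalization (-0.96), median centring (-1.05), the offset (-0.41), and trend and robust (-0.73). Some values near 0 changed sign: Cxcl1 in p25alpha cells at 12 over 8 h was -0.00 with median centring, and Ccl6 was -0.01 with the offset. Without 1 array at a time, the steps at 12 over 8 h in p25alpha cells ran from -0.09 to 0.72 for Ccl2, 0.02 to 1.45 for Ccl7, -0.89 to 0.95 for Cxcl1 and -0.41 to 0.49 for Cxcl10. At 16 over 8 h they ran from -0.46 to 0.35 for Ccl2, -0.42 to 1.08 for Ccl7, -0.99 to 0.85 for Cxcl1 and -0.13 to 0.77 for Cxcl10. In mock cells they ran at 12 over 8 h from -0.55 to 0.73 for Ccl2, -0.38 to 0.08 for Ccl7 and -0.35 to 0.52 for Cxcl10, and at 16 over 8 h from -0.22 to 1.07 for Ccl2 and -0.12 to 0.49 for Cxcl10. The differences between p25alpha and mock ran from -0.11 to 1.01 for Ifit3, -0.30 to 0.01 for Mmp14 and -0.07 to 0.40 for Sdc4, and without changing sign from 0.42 to 1.66 for Cxcr3, 0.10 to 1.14 for Ppbp, 0.02 to 1.09 for Ccl6 and 0.30 to 1.33 for Lif. The cause of these changes was not tested. Median centring moved the median of all tested probe sets to -0.10, and to -0.15 at 12 h. Dim signals, as of Ccl6, Cxcl3 and Cxcr3, limit what can be read.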
